A study of Homo sapiens with 4 samples.

Results

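Collagen chain genes are the genes named COL, a number, A and a number, and each encodes 1 chain of a triple-helical protein of the extracellular matrix. Their members here were all genes of the deposited count table whose Ensembl identifier mapped to a protein-coding symbol of that form, whatever their values. There were 44 of them among 61541 genes, and 26 had a mean raw count of 20 or more over the 4 libraries and were described as expressed. These 26 chains belong to 15 of the 28 collagen types that have a member.

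RNA-seq was made from MDA-MB-231, a human breast cancer cell line with mesenchymal features. The control group was the parental line, kept through serial passages in normal medium and labelled as untreated (2 libraries). The cadmium group was the same line after long-term passage in cadmium, labelled with 10 µM, which had become resistant to the metal (2 libraries). All cells came from this 1 line, and the sources used here do not say whether the cadmium libraries came from separate selections, so the tests measure the spread between these libraries only. The control columns of the table carry the numbers 2 and 3, and they are called control 2 and control 3 here.

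Collagen chains fold in threes into a triple helix inside the endoplasmic reticulum, where prolines and lysines are hydroxylated, and the secreted molecules are trimmed, assembled and cross-linked outside the cell. Fibril-forming collagens (types I, V, XI and XXVII among others) build fibres, type IV forms the sheet of the basement membrane, type VI forms beaded filaments, and type VII anchors the basement membrane to the tissue below. Other classes sit on fibrils, span the plasma membrane (types XIII, XVII, XXIII and XXV) or carry long sugar chains in basement membrane zones (the multiplexins XV and XVIII). In tissue, fibroblasts make most of the fibrillar collagen, and epithelial and endothelial cells make basement membrane and transmembrane types.

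Library totals ranged from 51934729 to 61916007 assigned reads. The line's markers VIM, CD44 and AXL were high in every library (summed normalised count 149330 to 163880). ESR1 and PGR, the receptors that mesenchymal-like breast cancer lines usually lack, had at most 30 raw reads in any library. Of the 7 fibroblast markers 2 were expressed, with a summed level of 746 and 812 in the controls and 561 and 743 in the cadmium libraries. Most of it was PDGFRB (530 to 729), and DCN and POSTN were at or near 0. LUM (71.0 and 14.9 in the controls, 9.95 and 7.90 in the cadmium libraries) and PDGFRA (25 and 4 raw reads in the controls, 0 in both cadmium libraries) were lower in cadmium at an unadjusted DESeq2 p of 0.0276 and 0.00641, but LUM had an adjusted p of 0.571 and PDGFRA received none. Of the 5 endothelial markers 3 were expressed, and the 5 summed to 809 and 1029 in the controls and 1098 and 1039 in the cadmium libraries. The sum hid opposite differences between the controls, in PECAM1 (160 and 842) and KDR (617 and 158), and the cadmium libraries fell between the controls for both. VWF was above both controls in both cadmium libraries (24.6 and 22.3 against 60.7 and 38.5, DESeq2 adjusted p = 0.901). The leukocyte markers PTPRC, CD68 and CD3E summed to 7.57 and 151 in the controls and 46.8 and 52.3 in the cadmium libraries, with CD3E at 0 and PTPRC at 1.89 and 144 in the controls. EPCAM and CDH1, epithelial genes that are low in this line, did not pass the test and differed between the controls (EPCAM 2410 and 662, CDH1 107 and 615). The part of these differences in the collagen results was not tested.

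Relative to length, collagen expression was dominated by a few chains. Counts per kilobase of summed exon length were highest for COL6A1, followed by COL13A1, COL18A1, COL6A2, COL8A1, COL5A1, COL4A2 and COL7A1. These 8 chains held 83.1% and 92.4% of the summed per-kilobase level of all expressed chains in control 2 and control 3, and 87.2% and 87.0% in cadmium 1 and cadmium 2. The leading set thus joined beaded filament, transmembrane, multiplexin, short-chain, fibril-forming, basement membrane and anchoring fibril types. Order among near neighbours was not stable: COL6A1 stood at 1421 counts per kilobase in control 2 and 5980 in control 3, a range that enclosed the 1479 to 2346 of COL13A1 over the 4 libraries. At the other end were COL4A3 (mean 1.79 per kilobase), COL1A2 (3.20), COL4A6 (4.22) and COL15A1 (4.66). The main fibroblast product, type I collagen, was present mostly as one chain, with COL1A1 at 75.1 per kilobase and COL1A2 at 3.20.

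**Figure D1:**
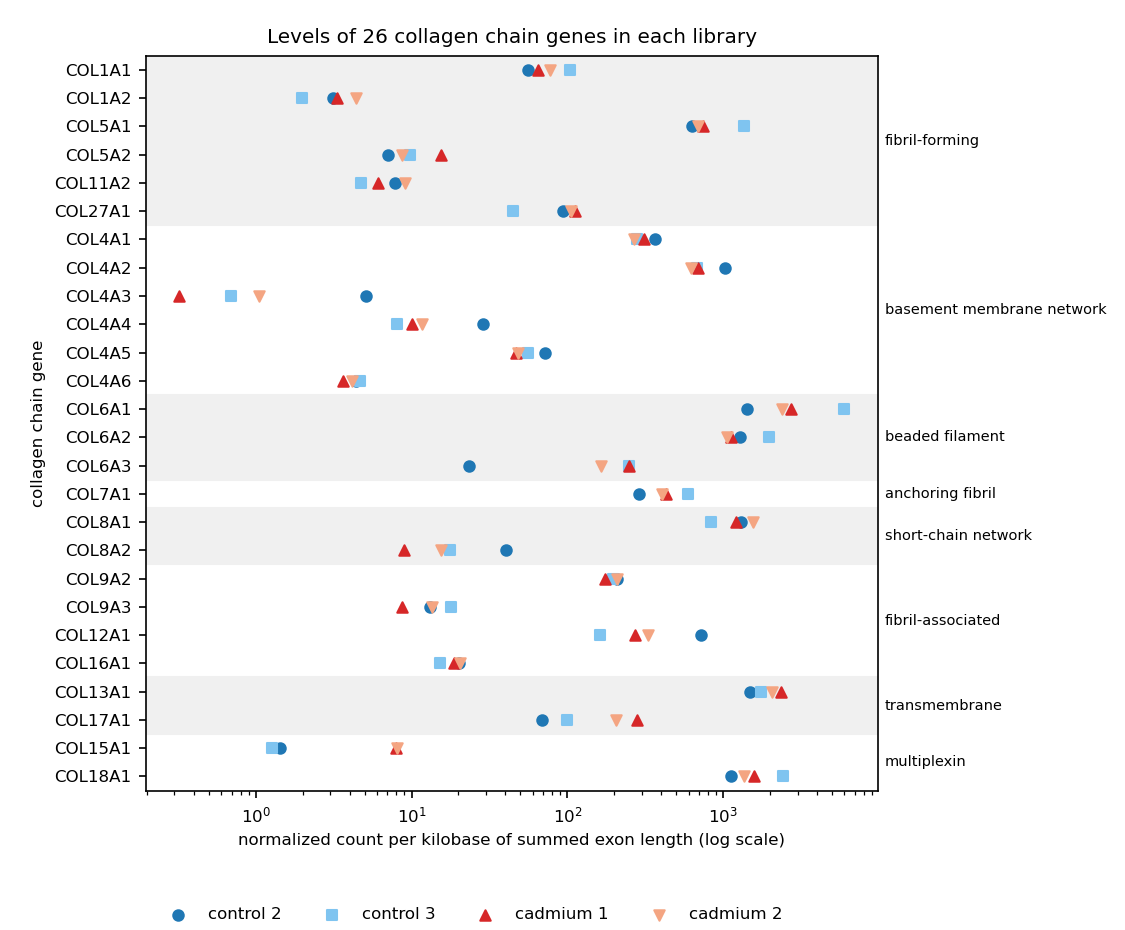
Normalised counts per kilobase of the 26 expressed collagen chains on a log axis, with 1 point for each of the 4 libraries and chains grouped by class. COL6A1, COL13A1 and COL18A1 have the highest mean levels and COL4A3 the lowest. The control points of COL6A3, COL6A1, COL12A1 and COL4A3 lie far apart.

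The comparison of cadmium with control cells called 2 expressed chains higher, COL17A1 and COL15A1, and 0 lower (DESeq2, adjusted p below 0.1). Over all 19816 genes tested, 0.601% were called higher and 0.535% lower, so 1.14% in either direction, against 7.69% of the 26 chains. These shares follow unlike filters, a mean normalised count of 7.69 for all genes tested and a mean raw count of 20 for the chains. COL15A1 passed the limit of 20 only through its cadmium libraries (53 and 54 raw reads, against 10 and 8 in the controls). Its place among the 26 thus rested on the group where it was high, and the share called is not read as a result about the chains. In bulk RNA such as this, fewer cells with a transcript and less of it per cell cannot be told apart. At an unadjusted p below 0.05 there were 3 chains (11.5%), beside 6.92% of all genes tested. edgeR's quasi-likelihood test and limma-voom called 0 genes of any kind at an adjusted p below 0.1, and each gave 3 chains an unadjusted p below 0.05, where 7.83% and 7.4% of all genes reached that level. Leaving out control 2 gave 6 chains higher and 5 lower, beside 7.36% and 7.43% of all genes tested. Leaving out control 3 gave 7 and 7, beside 13.5% and 17.7%. The spread in these DESeq2 fits comes from the closer cadmium pair, and calls rose over the whole table. Leaving out either cadmium library gave 0 chains in both directions, beside 0.0807% of all genes higher and 0.0336% lower without cadmium 1, and 0.0686% and 0.0381% without cadmium 2. The median log2 fold change of the chains was -0.17, with 10 above 0 and 16 below, against -0.04 over the 16647 genes with a mean count of 20 or more.

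COL17A1 (ENSG00000065618, chr10:104031286-104085880, minus strand, hg38) encodes a transmembrane collagen of hemidesmosomes, the junctions that hold epithelial cells to the basement membrane. Its normalised count was 480 in control 2 and 696 in control 3, and 1954 and 1440 in cadmium 1 and cadmium 2. Both cadmium libraries lay above both controls. The mean rose 2.89-fold, from 588 ± 153 to 1697 ± 363 (SD, n = 2 each). On the log2 scale this was 1.53 ± 0.34 (SE), and the DESeq2 adjusted p was 0.00220. The edgeR and voom adjusted p were 0.620 and 0.669. Leaving out cadmium 1 gave a log2 value of 1.29 and a DESeq2 adjusted p of 1.00, and leaving out cadmium 2 gave 1.73 and 0.645. In these fits the spread comes from the control pair alone. Of the 40 nearest genes on the chromosome with a mean count of 100 or more, the median log2 ratio of cadmium to control was 0.09, against 1.59 for COL17A1. Both are on a log2(count + 1) scale centred on the median of all genes with such counts, as are the other neighbour values given here.

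The 250 bases before the RefSeq start site of COL17A1 are shown because it was the chain with the smallest adjusted p (chr10:104085881-104086130, minus strand, GRCh38.p14, read 5′ to 3′). No annotated GENCODE exon lies in the stretch. Capitals mark every match to the motifs searched on both strands, which were the metal response element core (TGCACNC or TGCGCNC, the sequence recognised by the metal-sensing factor MTF-1), the AP-1 site of FOS and JUN proteins (TGANTCA), a forkhead site (TGTTTAC), the GC box (GGGCGG) and the TATA box (TATAAA).
COL17A1: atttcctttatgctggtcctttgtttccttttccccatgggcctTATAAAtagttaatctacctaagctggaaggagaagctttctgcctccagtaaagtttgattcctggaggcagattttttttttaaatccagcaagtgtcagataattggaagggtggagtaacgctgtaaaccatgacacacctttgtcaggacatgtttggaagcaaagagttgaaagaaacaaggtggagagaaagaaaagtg
The 1 match was a TATAAA that began 206 bases before the start site.

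COL15A1 (ENSG00000204291, chr9:98943179-99070792, plus strand, hg38) encodes the chain of type XV collagen, a multiplexin of basement membrane zones. Its raw counts were 10 and 8 in control 2 and control 3, and 53 and 54 in cadmium 1 and cadmium 2. The groups were far apart and each was tight, but the counts were among the lowest of the expressed chains. The normalised mean rose from 8.98 ± 0.676 to 53.0 ± 0.401 (SD, n = 2 each), which is 5.90-fold, or 2.56 ± 0.77 (SE) on the log2 scale, at a DESeq2 adjusted p of 0.0869. The call was lost without independent filtering (adjusted p = 0.147), with counts halved because mates were counted separately (0.335), and in edgeR (0.620) and voom (0.669). Without either cadmium library it received no adjusted p, since it fell under the filter on low counts. An antisense lncRNA that shares 137 exon bases with it had 0 reads in every library. Its 40 neighbours had a median log2 ratio of 0.01.

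The window of COL15A1 held 3 matches to the metal response element core, beginning 155, 84 and 67 bases before the RefSeq start site, and 1 GC box. At least 3 such matches were found in 2.30% of the 35116 RefSeq windows of 300 bases (250 before to 50 after a start site). Of the COL15A1 window, 2 short stretches are shown around the matches (plus strand, GRCh38.p14). Other annotated transcripts of the gene start upstream, and both stretches lie in an exon of them.
COL15A1 chr9:98943741-98943770: gcagcagaggcGAGCGCAcgtccgtcgagg
COL15A1 chr9:98943820-98943849: tgaGTGCGCAgcgcgcggggGAGCGCAggg
Here capitals mark the metal response element core, read on the opposite strand. Windows were given for 20 of the 26 expressed chains (26 windows, since some chains have several start sites). The core was in 7 of them (26.9%) against 29.6% of all windows, so the chains as a set did not hold it more often. AP-1 and forkhead matches were in 0 windows, against 7.71% and 3.42% of all. A GC box was in 18 (69.2%) against 45.0%, and a TATA box in 5 (19.2%) against 11.5%. Some windows overlap and hold the same boxes, such as those of COL5A1, which begin at 134641553 and 134641555. The median GC content of the windows was 67.0%, beside 58.7% over all windows. A match is a description of letters and not of binding.

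**Figure D2:**
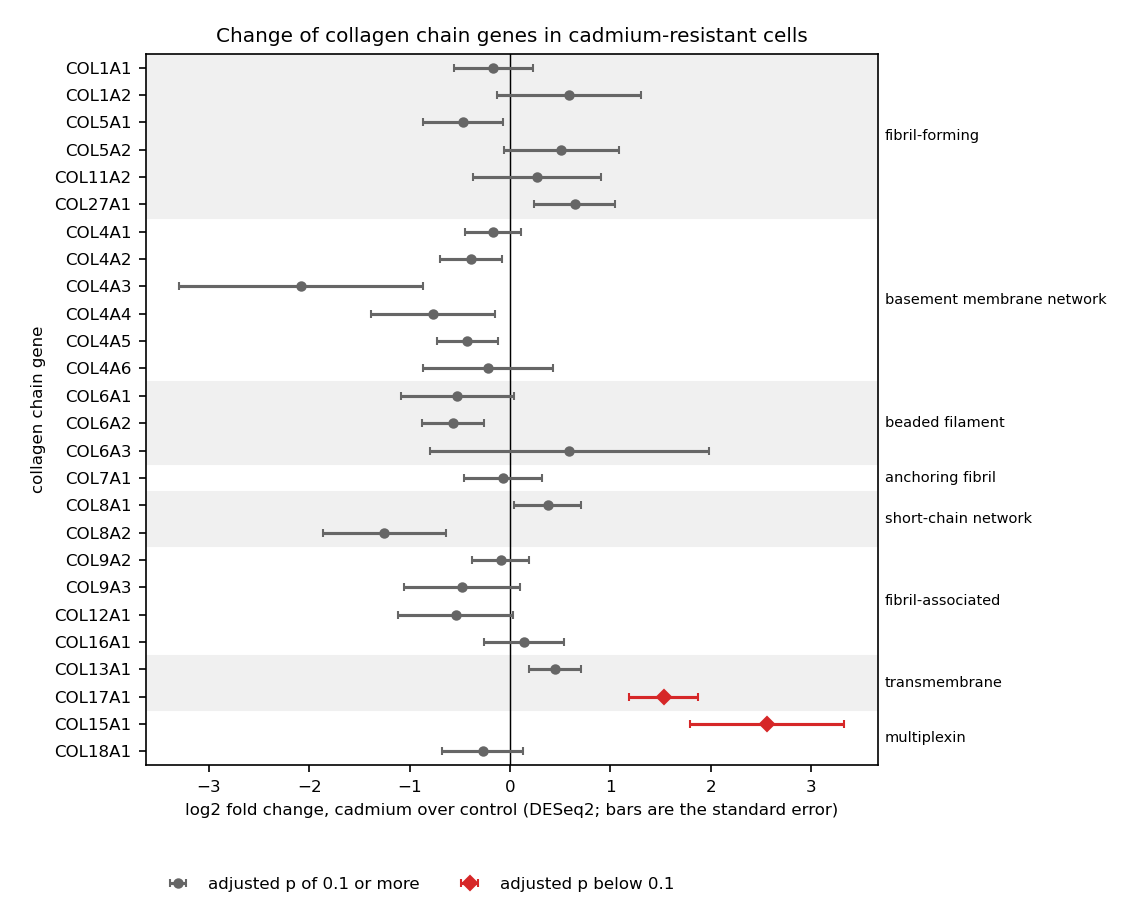
Log2 fold change of cadmium over control with its standard error for each of the 26 expressed chains, from DESeq2 fitted on all genes (2 libraries a group). COL15A1 (2.56) and COL17A1 (1.53) are the chains called; most of the other values lie within 1 of 0, COL4A3 (-2.08) is the lowest, and COL6A3 (0.59) has the widest error.

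The other transmembrane chain, COL13A1, has a role in cell adhesion and in the neuromuscular junction. It was higher in both cadmium libraries (26997 and 23828) than in both controls (17021 and 20200), but did not pass the test (log2 fold change 0.45 ± 0.26, DESeq2 adjusted p = 0.819). Both transmembrane chains that were expressed therefore lay above the control range, while COL23A1 was at 0 and COL25A1 had at most 7 reads. Of all genes with a mean count of 20 or more, 19.4% lay above both controls. COL18A1, the second multiplexin and the source of the fragment endostatin, had 9452 and 20550 in the controls and 13396 and 11469 in the cadmium libraries, which both fell between the controls. COL18A1 shares 1563 exon bases with SLC19A1 on the opposite strand, whose raw counts were 72 and 638 in the controls and 197 and 272 in the cadmium libraries. Since counting ignored strand, reads from these shared bases cannot be assigned to either gene.

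Among fibril-forming chains, 6 of 11 were expressed and 0 were called. COL1A1, the main chain of type I collagen, had normalised counts of 501 and 930 in the controls and 580 and 695 in the cadmium libraries, between the controls. Its partner COL1A2 had 34.1 and 21.3 in the controls and 35.8 and 47.4 in the cadmium libraries, just above the control range (log2 fold change 0.59 ± 0.72, DESeq2 adjusted p = 1.00). COL5A1, which helps to start fibrils, had 7027 and 15092 in the controls and 8284 and 7725 in the cadmium libraries, also inside the control range. Its partner COL5A2 was about 2 orders of magnitude lower, at 52.0 and 71.2 in the controls and 112 and 63.2 in the cadmium libraries. COL27A1, named here after its values were seen, had 1311 and 623 in the controls and 1557 and 1467 in the cadmium libraries, above both controls (log2 fold change 0.64 ± 0.41, DESeq2 adjusted p = 0.889). COL11A2 had 57.7 and 35.1 in the controls and 44.8 and 67.1 in the cadmium libraries, so the groups overlapped.

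The 6 type IV chains were all expressed, and none was called. COL4A1 and COL4A2 encode the chains of the common basement membrane network. COL4A1 had 5339 and 4131 in the controls and 4523 and 3903 in the cadmium libraries. COL4A2 had 19792 and 13125 in the controls and 13252 and 11908 in the cadmium libraries (log2 fold change -0.39 ± 0.31, DESeq2 adjusted p = 0.982). Both sets overlapped, and in both genes control 2 was the highest library. COL4A5 lay below both controls in both cadmium libraries (848 and 665 against 555 and 572, log2 fold change -0.42 ± 0.30, DESeq2 adjusted p = 0.941), as did COL4A6 (40.7 and 43.6 against 33.8 and 38.5, adjusted p = 1.00). Around COL4A5 on the X chromosome the 40 neighbours had a median log2 ratio of control 3 to control 2 of 0.85, while COL4A5 itself stood at -0.29. For cadmium to control the neighbours had a median log2 ratio of 0.38, against -0.37 for COL4A5. The chains of the specialised kidney and lung network, COL4A3 and COL4A4, were higher in control 2 than in any other library. COL4A3 had raw counts close to the limit for being described (mean 22.75) and normalised counts of 62.5 and 8.51 in the controls and 3.98 and 12.8 in the cadmium libraries. It shares 838 exon bases with the antisense lncRNA MFF-DT, which had 34 to 50 raw reads in all libraries. COL4A4, named after its values were seen, had 341 and 95.7 in the controls and 118 and 137 in the cadmium libraries.

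Type IV genes lie head to head in pairs that share a promoter region. The RefSeq start sites of COL4A1 and COL4A2 were 127 bases apart, those of COL4A4 and COL4A3 419 bases, and those of COL4A6 and COL4A5 380 or 1416 bases, by the start site of COL4A6. Exon-free stretches between the partners are shown for the first pair and for COL4A4 and COL4A3 (plus strand, GRCh38.p14). The minus-strand gene lies to the left. For COL4A4 and COL4A3 this is the stretch between their outermost annotated exons. The annotated COL4A1 and COL4A2 genes overlap, since COL4A2 begins at 110305812 and COL4A1 ends at 110307157. Their stretch runs from the end of COL4A1 to the next annotated exon of COL4A2. Capitals mark GC boxes on either strand, the only motif of those searched that was matched in either stretch.
COL4A1 and COL4A2, chr13:110307158-110307257: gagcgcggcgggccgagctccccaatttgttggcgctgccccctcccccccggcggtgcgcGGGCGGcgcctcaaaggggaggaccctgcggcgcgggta
COL4A4 and COL4A3, chr2:227164454-227164623: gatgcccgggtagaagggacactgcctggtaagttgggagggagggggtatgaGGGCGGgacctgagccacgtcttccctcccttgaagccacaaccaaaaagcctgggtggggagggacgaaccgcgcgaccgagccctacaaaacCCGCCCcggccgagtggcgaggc
Control 2 was above control 3 for both partners in each of these pairs, while in the COL4A6 and COL4A5 pair it was above for COL4A5 and slightly below for COL4A6.

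Of the 5 type VI chains 3 were expressed, and they differed in how far the controls lay apart. COL6A1 had normalised counts of 7867 and 33108 in control 2 and control 3, and the cadmium libraries fell between them at 15176 and 13272. COL6A2, which lies near it on chromosome 21, had 6862 and 10448 in the controls and 5961 and 5679 in the cadmium libraries. COL6A3, the largest chain, had 506 and 5361 in the controls and 5311 and 3522 in the cadmium libraries. Control 3 was the higher control for all 3 chains, 4.21-fold for COL6A1, 1.52-fold for COL6A2 and 10.6-fold for COL6A3. COL6A2 was the one whose cadmium libraries both lay below the control range (log2 fold change -0.57 ± 0.31, DESeq2 adjusted p = 0.766). The fold change of COL6A1 was -0.53 on the log2 scale with both controls, -1.22 without control 2 and 0.84 without control 3, and that of COL6A3 was 0.59, -0.28 and 3.11. The direction of both chains therefore rested on which control was used. The neighbours of COL6A1 had a median log2 ratio of control 3 to control 2 of 0.39, against 2.13 for COL6A1, and those of COL6A3 0.04, against 3.46.

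The short-chain network collagen type VIII is made by vascular and corneal cells. COL8A1 was among the highest chains, with 12286 and 7798 in the controls and 11443 and 14621 in the cadmium libraries. COL8A2 (chr1:36095239-36125222, minus strand, hg38) was far lower, with 188 and 82.9 in the controls and 41.8 and 72.1 in the cadmium libraries. Both cadmium libraries lay below both controls, though cadmium 2 was close to control 3. The log2 fold change was -1.25 ± 0.61 with an unadjusted DESeq2 p of 0.0405 and an adjusted p of 0.670. Without control 3 the log2 fold change was -1.74 (adjusted p = 0.0123) and without control 2 it was -0.55 (adjusted p = 0.778), in DESeq2 fits whose spread comes from the cadmium pair alone. Its 40 neighbours had median log2 ratios of -0.24 for cadmium to control and -0.67 for control 3 to control 2, against -1.18 and -1.11 for COL8A2.

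COL7A1, the chain of anchoring fibrils, had 3213 and 6592 in the controls, and the cadmium libraries fell between them at 4788 and 4527. Of the 10 fibril-associated chains 4 were expressed, none outside the control range in both cadmium libraries. COL12A1, which sits on type I fibrils, had 13511 and 3053 in control 2 and control 3, and the cadmium libraries fell between them at 5113 and 6252. Its log2 fold change was -0.54 with both controls, 0.89 without control 2 and -1.26 without control 3. The cartilage chains COL9A2 and COL9A3 overlapped between groups, with 881 and 831 against 732 and 875 for COL9A2, and 63.4 and 86.1 against 41.8 and 65.2 for COL9A3. COL9A3 shares 155 exon bases with TCFL5 on the opposite strand, which had 2394 to 3055 raw reads. COL16A1 ranged from 140 to 190 over all 4 libraries.

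Many chains differed between the controls. In 10 of 26 (38.5%) the controls differed more than 2-fold, beside 19.5% of the 16647 genes with a mean count of 20 or more, and in 4 (15.4%) more than 4-fold, beside 5.85%. Of the 10 chains, 5 were higher in control 3 (COL5A1, COL6A1, COL6A3, COL7A1, COL18A1) and 5 in control 2 (COL4A3, COL4A4, COL8A2, COL12A1, COL27A1). So the controls did not differ by a shift of all chains in one direction. The cadmium libraries differed more than 2-fold for COL4A3 alone, and 2.58% of all such genes did so. For the chains, the median absolute log2 difference of the controls was 0.67 and that of the cadmium libraries 0.22, against 0.44 and 0.14 for all such genes. For 11 chains the cadmium mean lay between the 2 control values and for 9 (34.6%) the groups did not overlap, beside 40.9% of all genes with a mean count of 20 or more. Both cadmium libraries were above both controls for 5 chains (19.2%, beside 19.4%) and below for 4 (15.4%, beside 21.5%), shares near or under the background.

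**Figure D3:**
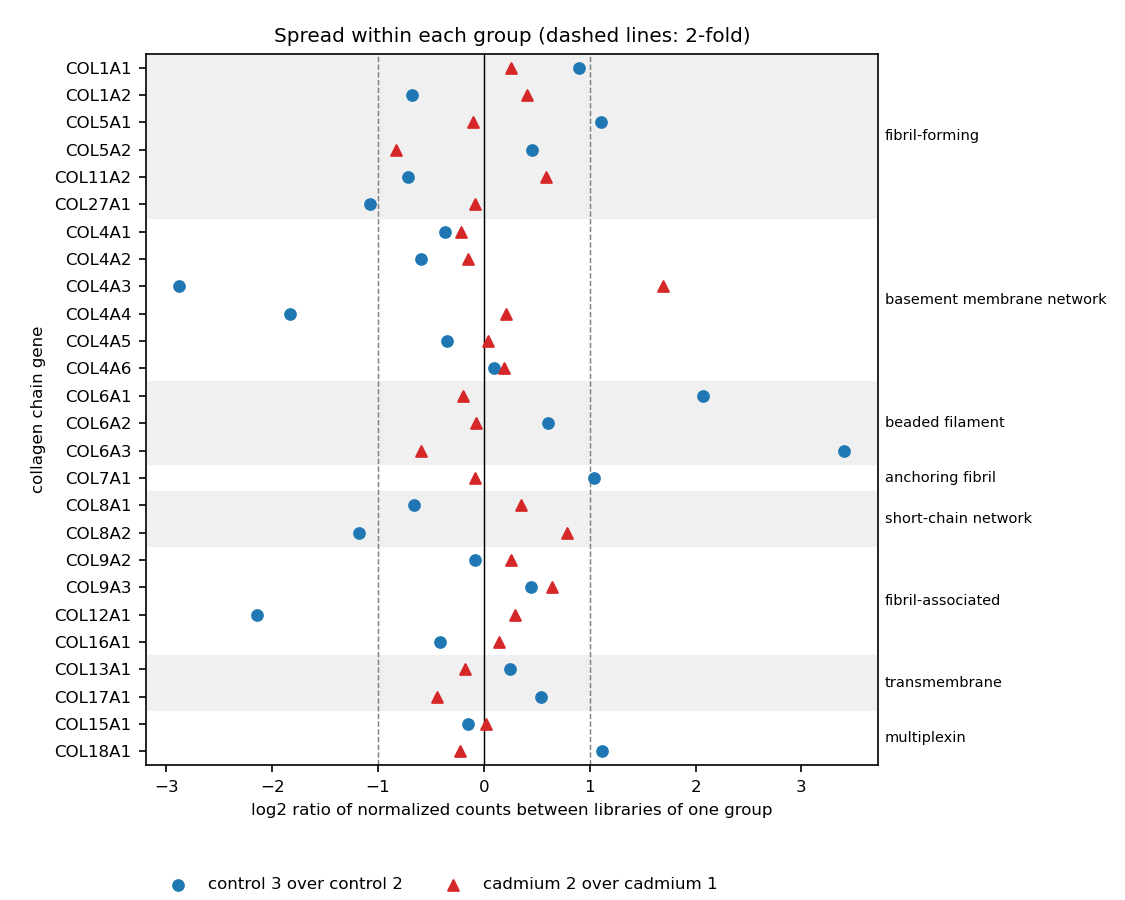
Log2 ratio of control 3 to control 2 and of cadmium 2 to cadmium 1 for each of the 26 expressed chains. The control ratios spread from -2.88 for COL4A3 to 3.40 for COL6A3, on both sides of 0, while the cadmium ratios stay nearer to 0 except for COL4A3.

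Chains that assemble into one molecule were compared by the ratio of their counts per kilobase in each library, as a description with no test. COL4A2 over COL4A1 was the steadiest, at 2.82 and 2.42 in the controls, and slightly lower in both cadmium libraries at 2.23 and 2.32. COL4A5 over COL4A6 ranged from 11.6 to 16.3 and COL9A2 over COL9A3 from 11.1 to 20.1, with overlapping groups. COL6A1 over COL6A2 was 1.10 in control 2 and 3.05 in control 3, and 2.45 and 2.25 in the cadmium libraries. COL6A1 over COL6A3 was 60.4 and 24.0 in the controls, and lower in both cadmium libraries at 11.1 and 14.6. COL8A1 over COL8A2 was 32.4 and 46.7 in the controls, and higher in both cadmium libraries at 136 and 101. COL1A1 over COL1A2 stood at 52.5 in control 3 and at 17.6 to 19.4 in the other 3 libraries. COL5A1 over COL5A2 was 88.5 and 139 in the controls, and lower in both cadmium libraries at 48.3 and 80.2. COL4A4 over COL4A3 was 5.67 and 11.7 in the controls and 30.9 and 11.1 in the cadmium libraries, on counts of COL4A3 that were low in 3 libraries. No ratio is given for pairs with COL9A1 or COL11A1, which were not among the expressed chains. The level of a ratio depends on the length used, and its order between libraries does not. No background over other gene pairs is given for these ratios. For single genes with a mean count of 20 or more, groups without overlap were common (40.9%).

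**Figure D4:**
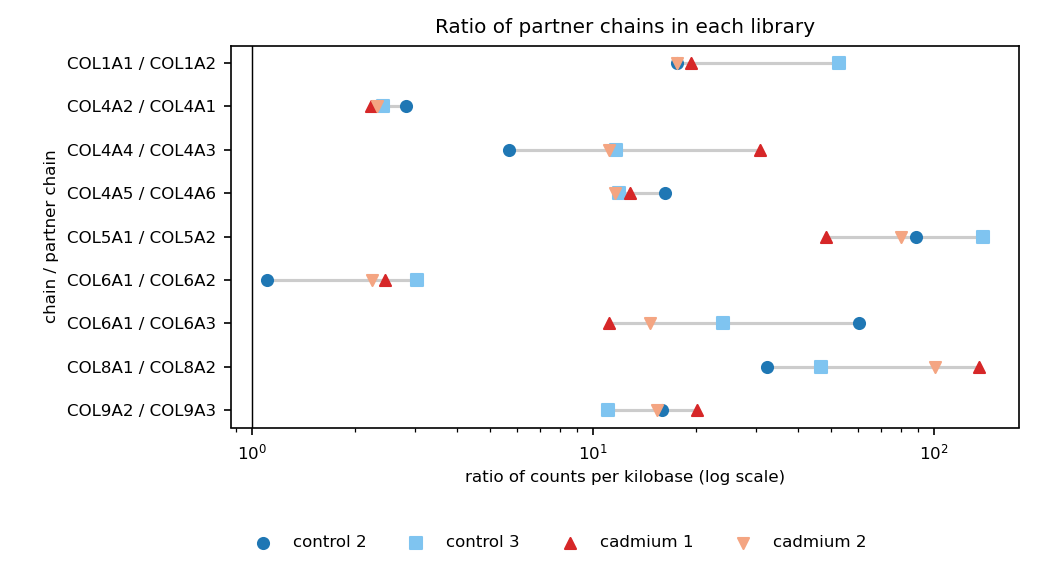
Ratio of counts per kilobase for chains that assemble together, on a log axis, with 1 point for each of the 4 libraries. COL4A2 over COL4A1 is nearly the same in all libraries (2.23 to 2.82), while COL8A1 over COL8A2 is higher and COL6A1 over COL6A3 lower in both cadmium libraries.

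The other 18 chains were below a mean raw count of 20. Of these 3 were at 0 in every library (COL5A3, COL22A1 and COL23A1), 14 received no adjusted p, and 0 were called. COL24A1 was the chain just under the limit, with a mean of 11.25 reads. COL3A1, the second main fibrillar collagen of fibroblasts, had 8 and 4 raw reads in the controls and 4 and 2 in the cadmium libraries. COL11A1, named after its values were seen, had 0 raw reads in both controls and 10 and 24 in the cadmium libraries, so that, with 3 reads taken as the floor in each control library, its cadmium level was at least 5.58-fold higher, or at least 2.79-fold higher with a floor of 6 reads, since mates were counted separately. Its unadjusted DESeq2 p was 0.00187 and its adjusted p 0.136, so it was not called. The adjusted p was 0.0924 with upper-quartile factors, 0.0421 without control 3, 0.230 without independent filtering, 0.620 in edgeR and 0.669 in voom. COL10A1, the hypertrophic cartilage chain, had 0 reads in the controls and 4 and 6 in the cadmium libraries.

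Genes that modify, export, trim, cross-link or bind collagen were counted from a list of 48, of which 41 were expressed. DESeq2 called 0 higher and 2 lower (4.88% of the 41, beside 0.535% of all genes tested). The 41 were kept at a mean raw count of 20 or more, and all genes tested at the lower limit of a mean normalised count of 7.69. At an unadjusted p below 0.05 there were 7 (17.1%, beside 6.92%), all lower in cadmium. The median log2 fold change was -0.27, with 32 of 41 below 0, beside -0.04 over all genes with a mean count of 20 or more. The median over all such genes was itself below 0, so a value below 0 was common among them too. Without control 2 the median of the list was -0.11, with 27 below 0, beside -0.0019 over all such genes. Both cadmium libraries were below both controls for 17 (41.5%, beside 21.5% of all genes with a mean count of 20 or more) and above for 2 (4.88%, beside 19.4%), which were PLOD2, a lysyl hydroxylase, and ITGA1, a collagen-binding integrin subunit. edgeR and voom called 0 of them.

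Both called genes encode lysyl oxidases, the enzymes that cross-link collagen and elastin outside the cell. LOXL1 had normalised counts of 1455 and 1077 in the controls and 435 and 570 in the cadmium libraries. The groups did not overlap (log2 fold change -1.33 ± 0.33 SE, DESeq2 adjusted p = 0.0103). It shares 335 exon bases with the antisense lncRNA LOXL1-AS1, whose raw counts were 1074 and 634 in the controls and 454 and 575 in the cadmium libraries. LOXL4 had 3223 and 5197 in the controls and 1990 and 2007 in the cadmium libraries, again without overlap (log2 fold change -1.07 ± 0.33 SE, DESeq2 adjusted p = 0.0961). The adjusted p of LOXL4 was 0.163 with upper-quartile factors, 0.162 without independent filtering, 0.101 with halved counts and 0.178 with the length trend removed. Leaving out either cadmium library gave an adjusted p of 1.00 for LOXL1 and for LOXL4.

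The 15 genes of modification in the endoplasmic reticulum were all expressed, and 8 (53.3%) lay below and 1 (6.67%) above both controls, beside 21.5% and 19.4% of all genes with a mean count of 20 or more. P4HA2, a prolyl 4-hydroxylase subunit, had 4083 and 3708 in the controls and 2619 and 2624 in the cadmium libraries (log2 fold change -0.57, DESeq2 adjusted p = 0.510). P3H1, a prolyl 3-hydroxylase, had 8835 and 4699 against 3795 and 3889 (-0.82, adjusted p = 0.550), and P3H4, its relative without the enzyme activity, had 718 and 720 against 526 and 396 (-0.64, adjusted p = 0.670). None of these passed the adjusted threshold, and the cadmium values lay below the control range in each. CREB3L1, a membrane-bound transcription factor of the secretory pathway, had 6951 and 12078 against 5454 and 5434 (-0.81, adjusted p = 0.479). MRC2, the receptor that takes up collagen for breakdown, had 5058 and 11243 against 4194 and 3464 (-1.09, adjusted p = 0.324). Against the same 21.5%, 3 of 6 cross-linking genes lay below both controls, 3 of 7 genes of folding, export and control, 1 of 6 expressed genes of propeptide removal and 2 of 7 expressed receptors. Of the receptors 1 lay above.

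**Figure D5:**
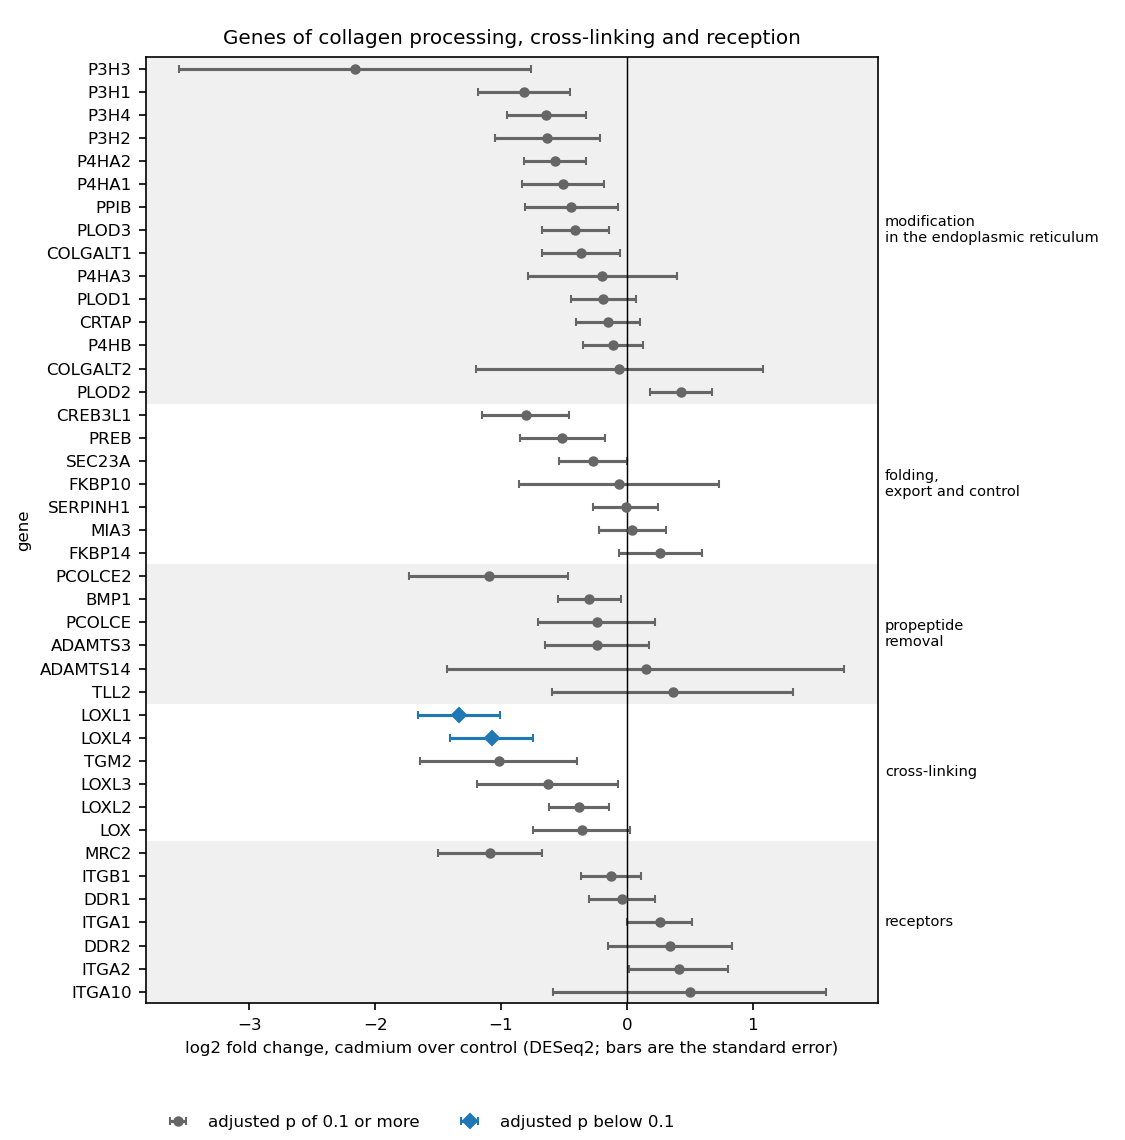
Log2 fold change of cadmium over control with its standard error for the 41 expressed genes of collagen modification, export, propeptide removal, cross-linking and reception, grouped by step. LOXL1 (-1.33) and LOXL4 (-1.07) are the genes called, and 32 of the 41 values lie below 0. The median over all genes with a mean count of 20 or more was -0.04.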

How the data were processed

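The authors made libraries from total RNA with an mRNA kit, aligned reads with HISAT2 to the hg38 assembly and counted them over Ensembl release 105 genes with featureCounts 2.0.1, per the study's methods, the labels and the file header. What was deposited is a table of unnormalised read counts for each gene. No strand or pair option was set, so strand was ignored, mates were counted separately and reads overlapping several genes were dropped. Library totals were 61916007 (control 2), 51934729 (control 3), 55092308 (cadmium 1) and 56602748 (cadmium 2).

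DESeq2 1.42.0 (R 4.3.3) was fitted to all genes (group as the only term, median-of-ratios factors of 1.06, 0.940, 1.00 and 1.01, two-sided Wald test, Benjamini-Hochberg adjustment after independent filtering at a mean of 7.69, threshold 0.1), the test the study used. Alternatives were edgeR 4.0.16 (quasi-likelihood), limma 3.58.1 (voom), other scalings and filters, and each library left out in turn. The DESeq2 and edgeR fits were tested on simulated data, and the voom fit and the removal of the length trend were not. Levels between genes are normalised counts per kilobase of the table's summed exon length. Promoter windows came from RefSeq (GRCh38.p14), and exon overlaps and canonical transcript lengths from GENCODE. Chains given in full were those called, with an unadjusted p below 0.05, among the 8 highest per kilobase, in a pair that assembles together, or with controls more than 4-fold apart. The members, lists and this rule were chosen with earlier results of these data known. A planned marker gene is not reported here.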

Additional observations from a re-analysis of the deposited data

How the results depend on the processing

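edgeR and limma-voom called 0 genes in either direction over all genes, 0 chains and 0 genes of the collagen pathway list. The 2 chains called higher became 1 (COL17A1) without independent filtering, with halved counts and at an adjusted p below 0.05, and the 2 pathway genes called lower became 1 (LOXL1) under those settings, with upper-quartile factors and with the length trend removed. Upper-quartile factors changed the split over all genes from 119 higher and 106 lower to 152 and 88. The cause of these losses was not tested. COL7A1 turned from -0.07 to 0.024 on the log2 scale in limma-voom. With canonical transcript lengths, an alternative added after the data were seen, the mean ratio became 3.26 for COL4A2 over COL4A1, 17.2 for COL4A5 over COL4A6, 135 for COL8A1 over COL8A2, 17.8 (from 27.5) for COL6A1 over COL6A3 and 11.9 for COL9A2 over COL9A3.

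Leaving out each library in turn, calls over all genes ranged from 9 to 2678 higher and from 5 to 3511 lower. Chains ranged from 0 to 7 higher and from 0 to 7 lower, and pathway genes from 0 to 5 higher and from 0 to 23 lower. Fits without a control take the spread from the close cadmium pair and gave the high counts. Fits without a cadmium library take the spread from the control pair and gave the low ones. Calls over all genes rose in the same fits without a control, so the counts there are not read as results about the chains or pathway genes. The median log2 fold change of the chains ranged from -0.20 to 0.0088 and that of the pathway genes from -0.37 to -0.11. The direction changed in at least 1 of these fits for 12 chains, whose log2 fold changes ranged from -0.55 to 0.34 for COL1A1, from -0.35 to 0.027 for COL4A1, from -0.92 to 0.18 for COL5A1, from -1.22 to 0.84 for COL6A1, from -0.28 to 3.11 for COL6A3, from -0.50 to 0.52 for COL7A1, from -0.23 to 0.026 for COL9A2, from -0.056 to 0.67 for COL11A2, from -1.26 to 0.89 for COL12A1, from -1.43 to 0.42 for COL4A4, from -0.062 to 0.36 for COL16A1 and from -0.73 to 0.38 for COL18A1. Depth limited most the chains under 20 reads and, of those expressed, COL4A3, COL15A1, COL1A2 and COL4A6. No paired analysis was possible because replicate numbers differ between the control columns (2 and 3) and the labels (1 and 2). Coding lengths and protein features were not run.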
